A study of Mus musculus with 6 samples.

Results

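The 10 genes described here encode apolipoproteins (*Apoa1*, *Apoa2*, *Apoa4*, *Apob*, *Apoc1*, *Apoc2*, *Apoe* and *Apom*) and proteins that help to build or load lipoproteins (*Mttp* and *Soat2*). They were taken by symbol from a table of raw RNA-seq counts for 55401 genes. The libraries came from whole mouse embryos at embryonic day E10.5. WT embryos had an unmodified *Igf2* locus, and their 5C littermates carried 5 tandem copies of the microRNA gene *Mir483* placed at that endogenous locus through embryonic stem cells and passed on by chimeric males. The 3 WT and 3 5C libraries were each made from 2 pooled male embryos, as the methods state. The labels give no treatment, and both genotypes were collected at the same stage. Nothing in the labels says whether extraembryonic membranes were removed.

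Lipoproteins carry lipid through the circulation, and their protein components are made mainly by liver and intestine. Before the liver works, the visceral endoderm of the yolk sac makes them: it packs lipid onto apolipoprotein B with the help of microsomal triglyceride transfer protein and secretes the particles toward the embryo. Mice that lack either *Apob* or *Mttp* die in midgestation. Apolipoprotein A1 is the core of high-density lipoprotein (HDL), and apolipoprotein E, made by many cell types, hands particles to receptors.

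Totals ranged from 6357343 to 19151368 counts per library, so 3 counts, the floor used here for counting error alone, equalled 0.157 to 0.472 CPM (counts-per-million, scaled to TMM-adjusted library totals). The labels were checked on *Mir483* itself, which had 11, 5 and 2 counts in WT and 85, 51 and 36 counts in 5C, with no overlap between genotypes. WT replicate 1 and 5C replicate 3 stood apart from the other libraries of their genotype by the number of genes far above them. In WT replicate 1, 117 of the 16784 genes tested, or 0.697%, lay at least 4-fold above the mean of the other WT libraries, and 7 of them were apolipoprotein or assembly genes. In 5C replicate 3, 71 genes, or 0.423%, lay at least 4-fold above the mean of the other 5C libraries, 6 of them from this set. The same count was 7 genes in WT replicate 2, 26 in WT replicate 3 and 0 in 5C replicates 1 and 2, with 0 genes of this set in each. By the chi-square per gene between pairs of libraries, which weighs all genes, WT replicate 3 was as far from the rest (17.35 to 24.74) as WT replicate 1 (15.19 to 24.74). On that measure 5C replicate 3 (6.017 to 23.59) had a range near that of 5C replicate 1 (5.765 to 21.03). Results are given with and without WT replicate 1 and 5C replicate 3. Both were singled out by values that include those of these genes, so p-values from fits without them are descriptive.

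Across the 6 libraries, 9 of the 10 genes were measured well enough to test. All 9 had the same 2 libraries on top, though the order of the others differed between genes. WT replicate 1 had the highest CPM and 5C replicate 3 the second highest for 9 of 9, an order found in 4.09% of all genes tested. The summed level of the 10 genes was 2527, 128 and 237 CPM in the WT libraries and 93.6, 83.8 and 521 CPM in the 5C libraries. Their share of all counts ran from 0.00844% in 5C replicate 2 to 0.251% in WT replicate 1. The spread between libraries of 1 genotype was thus larger than the difference between genotypes, and in these bulk samples fewer cells of a type and less RNA per cell cannot be told apart.

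**Figure D1:**
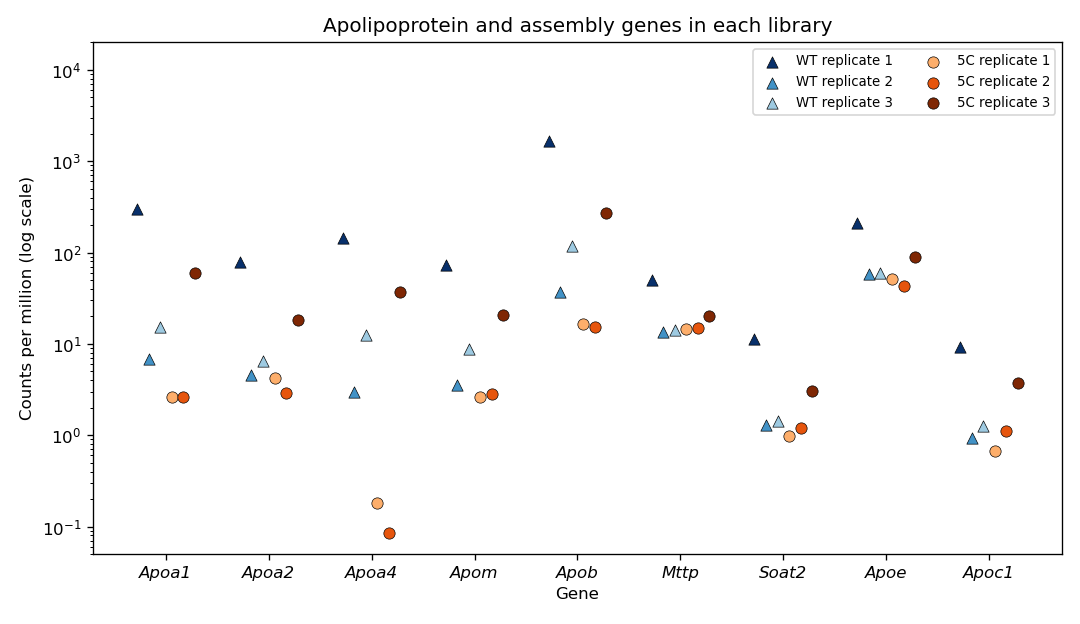
Each point is the level of a gene in 1 library, in CPM on a log axis, with WT libraries as triangles and 5C libraries as circles. WT replicate 1 is the top point and 5C replicate 3 the second for all 9 genes plotted. *Apob* spans 15.3 to 1645 CPM, whereas *Mttp* spans 13.7 to 50.3 CPM.

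Since the 5C array raises a microRNA, its mature sequences are shown first, to let them be set against the transcripts of the 10 genes. A microRNA pairs with target mRNAs chiefly through its seed (bases 2 to 8 from the 5′ end), in capitals here. The sequences are from RefSeq on GRCm38.p6.
miR-483-3p: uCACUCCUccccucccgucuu
miR-483-5p: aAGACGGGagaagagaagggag
The sites that pair with these seeds are AGGAGTG and CCCGTCT. In the longest annotated coding transcript of each of the 10 genes (GENCODE, GRCm38), the 3′ UTR held neither, while 13.0% of tested genes held the first in their 3′ UTR and 3.61% the second. These 3′ UTRs were short, from 64 bases in *Apoa1* to 1201 bases in *Mttp*. The coding sequences held 3 matches to the miR-483-3p site, 2 in *Apob* and 1 in *Soat2*, and no match to the other. They are printed with the match in capitals and positions counted from the first base of the start codon.
*Apob* coding bases 3120 to 3126: gttcaagcagaAGGAGTGcagcagtctga
*Apob* coding bases 3400 to 3406: aagcagaagccAGGAGTGaggtccacacc
*Soat2* coding bases 1490 to 1496: cctatactgccAGGAGTGgtatgctcgtc
A match of letters is a description and says nothing of binding, and the absence of one says only that these letters are not in the window searched.

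The promoters were examined because the levels of the genes varied together between libraries. RefSeq promoter windows (250 bases before the annotated start and 50 from it) were found for 8 of the 10 genes, 11 windows in all. No window was listed for *Apoc1* and *Soat2*. Exact words were searched on both strands. For the core promoter this was TATAAA. For FOXA factors it was TGTTTAC or its variant TGTTTGC. For HNF1 it was the half-site GTTAAT, for HNF4 the word CAAAGTCCA, and for GATA factors AGATAAG. Windows of *Apob*, *Apoa1* and *Apoa2*, which varied widely between libraries, and of *Apoe* and *Mttp*, which varied least, are shown with matches in capitals.
*Apob*, chr12:7977427-7977726, plus strand: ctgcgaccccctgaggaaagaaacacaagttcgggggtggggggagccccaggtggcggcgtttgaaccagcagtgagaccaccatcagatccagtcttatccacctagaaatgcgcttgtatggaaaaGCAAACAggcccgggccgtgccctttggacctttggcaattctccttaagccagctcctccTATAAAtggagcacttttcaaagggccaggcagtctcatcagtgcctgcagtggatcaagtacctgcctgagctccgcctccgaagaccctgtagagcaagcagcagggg
*Apoa1*, chr9:46228380-46228679, plus strand: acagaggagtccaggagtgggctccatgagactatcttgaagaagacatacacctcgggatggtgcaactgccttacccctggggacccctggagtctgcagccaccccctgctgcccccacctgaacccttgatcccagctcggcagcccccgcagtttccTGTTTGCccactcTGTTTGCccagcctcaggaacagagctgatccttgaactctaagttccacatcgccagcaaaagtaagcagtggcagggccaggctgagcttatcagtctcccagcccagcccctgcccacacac
*Apoa2*, chr1:171224804-171225103, plus strand: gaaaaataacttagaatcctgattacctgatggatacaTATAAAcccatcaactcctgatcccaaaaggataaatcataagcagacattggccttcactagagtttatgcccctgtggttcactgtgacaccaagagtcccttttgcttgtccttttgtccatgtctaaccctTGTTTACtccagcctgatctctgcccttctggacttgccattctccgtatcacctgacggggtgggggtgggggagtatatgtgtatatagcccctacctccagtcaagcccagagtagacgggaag
*Apoe*, chr7:19698349-19698648, minus strand: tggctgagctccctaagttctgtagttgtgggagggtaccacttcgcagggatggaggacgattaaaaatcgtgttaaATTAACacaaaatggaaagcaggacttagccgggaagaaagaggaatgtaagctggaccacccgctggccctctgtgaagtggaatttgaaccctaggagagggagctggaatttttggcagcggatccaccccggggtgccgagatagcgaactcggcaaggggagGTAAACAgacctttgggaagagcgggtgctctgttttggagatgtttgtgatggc
*Mttp*, chr3:138143369-138143668, minus strand: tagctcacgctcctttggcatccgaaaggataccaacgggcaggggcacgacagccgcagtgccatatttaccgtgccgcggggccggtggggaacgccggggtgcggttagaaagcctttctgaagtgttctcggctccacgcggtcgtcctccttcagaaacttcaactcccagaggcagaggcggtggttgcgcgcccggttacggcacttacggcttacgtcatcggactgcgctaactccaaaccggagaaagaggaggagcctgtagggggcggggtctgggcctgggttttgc
A FOXA word stood in the windows of 4 genes. *Apoa1* held TGTTTGC 88 and 75 bases before the start, and *Apob* held the same word on the minus strand 121 bases before it. The second window of *Apoa2* held TGTTTAC 77 bases before the start, and a window of *Apoe* held it on the minus strand across the start. Of all 32851 windows, 5.07% held TGTTTGC and 3.65% held TGTTTAC.

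The word TATAAA was found in windows of *Apob*, *Apoa2* and *Apoe*, against 13.6% of all windows. In another *Apoe* window 2 matches on opposite strands overlapped. In *Apob* it lay 60 bases before the start. The HNF1 half-site was present in *Apoc2* and *Apoe* (7.1% of all windows), and neither the HNF4 word (0.475%) nor the GATA word (3.04%) was in any of the 11. The windows of *Apoa4* and *Apom*, whose levels also varied widely, held none of the words searched. The *Mttp* window, which likewise held none of these words, had 27 CpG dinucleotides, a number reached by 15.5% of all windows, while the windows of *Apoa1*, *Apoa2* and *Apoa4* held 1 to 4 and the median of all windows was 7. The windows of *Apob* and *Apom*, whose levels varied widely too, held 9 each. Those of *Apoe* held 10 to 12, and that of *Apoc2* held 7. Distances are from the RefSeq start of each window, which need not be the start in the gene coordinates given below. The *Mttp* window lies wholly inside those coordinates, as do both *Apoe* windows that held matches. The *Apoe* window at the start in those coordinates (chr7:19699139-19699438) held none of the words searched. Which start was used in these embryos was not measured.

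Among the HDL apolipoproteins, *Apoa4* and *Apoa1* had the widest ranges between libraries of the 9 genes, 9.24 and 6.78 on the log2 CPM scale, with *Apob* close behind at 6.74 and *Apom* and *Apoa2* at 4.74 and 4.70. *Apoa1* encodes the main structural protein of HDL and the activator of lecithin-cholesterol acyltransferase. It lies in GRCm38 on the plus strand of chr9:46228580-46230466 and measured 302, 6.78 and 15.3 CPM in WT against 2.61, 2.65 and 59.2 CPM in 5C. WT replicate 1 was 27.3-fold above the mean of the other WT libraries, the third largest such ratio of all genes tested, and the genotypes overlapped because 5C replicate 3 exceeded WT replicates 2 and 3. The log2 fold change, 5C against WT, was -2.37 ± 1.36 (SE; edgeR, adjusted p = 0.781).

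*Apoa4*, an intestinal apolipoprotein that is carried on HDL and chylomicrons, starts 10229 bases beyond the end of *Apoa1* on the same strand (chr9:46240696-46243459). It measured 143, 3.01 and 12.4 CPM in WT against 0.182, 0.0854 and 37.0 CPM in 5C. The 2 lowest values rest on 3 counts and 1 count, at or below the floor, whereas 5C replicate 3 had 520 counts. The genotypes of *Apoa4* overlapped through that library alone. Its log2 fold change was -2.14 ± 1.44 (SE; edgeR, adjusted p = 0.781). The gene shares 69.8% of its exon bases with genes on the opposite strand, which had at most 2 counts in any library.

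*Apoa2*, the second most abundant HDL protein in plasma, lies on chr1:171225054-171226379 (plus strand). It measured 79.4, 4.55 and 6.54 CPM in WT against 4.18, 2.90 and 18.4 CPM in 5C, so that the 4 lower libraries lay close together. *Apom*, a lipocalin that holds sphingosine-1-phosphate on HDL, lies on chr17:35128997-35132050 (minus strand) and measured 73.7, 3.52 and 8.77 CPM in WT against 2.61, 2.82 and 20.7 CPM in 5C. The log2 fold changes were -1.89 ± 0.99 for *Apoa2* and -1.79 ± 1.03 for *Apom* (SE; edgeR, adjusted p = 0.781 for both). In each of them 5C replicate 3 lay above WT replicates 2 and 3.

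Particle assembly was led by *Apob*, the non-exchangeable scaffold of chylomicrons, very-low-density and low-density lipoprotein. *Apob* lies on chr12:7977648-8016835 (plus strand) and measured 1645, 37.1 and 118 CPM in WT against 16.7, 15.3 and 269 CPM in 5C. WT replicate 1 was 21.2-fold above the mean of the other WT libraries, and 5C replicate 3 was 16.8-fold above the mean of the other 5C libraries. The log2 fold change was -2.59 ± 1.39, the largest in size among the 9 genes (SE; edgeR, adjusted p = 0.781).

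*Mttp* encodes the transfer protein that loads lipid onto nascent apolipoprotein B. It lies on chr3:138089854-138144968 (minus strand) and measured 50.3, 13.7 and 14.2 CPM in WT against 14.6, 15.1 and 20.3 CPM in 5C. Outside WT replicate 1 its levels stayed between 13.7 and 20.3 CPM, so that it was the only one of the 9 in which WT replicate 3 was not the third highest library. The log2 fold change was -0.69 ± 0.44 (SE; edgeR, adjusted p = 0.781). Genes on the opposite strand cover 9.49% of its exon bases. Among them *Trmt10a* had 644, 412 and 211 counts in WT against 594, 416 and 500 counts in 5C. The effect of this overlap on the *Mttp* counts was not tested.

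*Soat2*, which makes cholesteryl esters for secretion in liver and intestine, lies on chr15:102150526-102163469 (plus strand). It measured 11.4, 1.29 and 1.44 CPM in WT against 0.970, 1.20 and 3.06 CPM in 5C. It had the smallest unadjusted p of the 9 (edgeR, unadjusted p = 0.0712), which ranked 1486 of all genes tested, and a log2 fold change of -1.57 ± 0.77 (SE) (adjusted p = 0.781).

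Of the exchangeable apolipoproteins, *Apoe* differed from the HDL genes in having a substantial level in every library. *Apoe* directs remnant particles to receptors of the LDL receptor family and lies on chr7:19696109-19699188 (minus strand). It measured 212, 57.5 and 59.5 CPM in WT against 51.1, 42.6 and 89.5 CPM in 5C, and WT replicate 1 was 3.63-fold above the mean of the other WT libraries. The log2 fold change was -0.87 ± 0.47 (SE; edgeR, adjusted p = 0.781).

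*Apoc1*, which slows particle uptake and inhibits cholesteryl ester transfer, ends 3448 bases from *Apoe* (chr7:19689481-19692660, minus strand). It measured 9.29, 0.944 and 1.28 CPM in WT against 0.667, 1.11 and 3.77 CPM in 5C, with a log2 fold change of -1.21 ± 0.83 (SE; edgeR, adjusted p = 0.786). Although both genes are neighbours, WT replicate 1 exceeded the mean of the other WT libraries 8.36-fold for *Apoc1* and 3.63-fold for *Apoe*. *Apoc2*, the cofactor of lipoprotein lipase (chr7:19671579-19677941, minus strand), had 1 count in WT replicate 1 and none in the other 5 libraries, and it was not tested. It shares 646 of its 813 exon bases, or 79.5%, with the annotated gene *Gm44805* on the same strand, which had no counts, so that reads from the shared exons may have been assigned to neither and the level of *Apoc2* is uncertain.

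None of the 9 tested genes passed an adjusted p under 0.05 between 5C and WT (edgeR's quasi-likelihood test), nor did any of the 16784 genes tested, 0% of them. Limma-voom called 0 of the 9 as well, and DESeq2 called 0 of the 7 for which it gave a p (none was given for *Apoa1* and *Apoa2*). At an unadjusted p under 0.05 the count was likewise 0 with each of these tools, against 6.02% of all genes in edgeR. All 9 log2 fold changes were below 0, with a median of -1.79, whereas 50.7% of all genes were below 0 and their median was -0.0024. Most of these genes were among those the study had listed as changed on the same samples, so their shared direction is not independent evidence. In 0 of 9 genes were the WT and 5C values free of overlap, against 11.4% of all genes.

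As long as 5C replicate 3 was kept, the direction itself rested on WT replicate 1. Without that library all 9 log2 fold changes turned positive, from 0.07 for *Apoe* to 1.04 for *Apoa1*, with a median of 0.60, and 0 of 9 had an unadjusted p under 0.05 (edgeR, 4.63% of all genes). The WT and 5C values of 1 gene, *Mttp*, then did not overlap, against 20.9% of all genes. Without 5C replicate 3 the median was -3.14, and 8 of 9 had an unadjusted p under 0.05 (4.49% of all genes), with *Mttp* as the exception. In that comparison 7 of 9 genes did not overlap, against 19.8% of all genes. The adjusted p was 0.980 for each of the 9 genes. Without WT replicate 2, 7 of 9 had an unadjusted p under 0.05 (edgeR, 10.4% of all genes), and without WT replicate 3 the count was 3 of 9 (5.11% of all genes).

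With both libraries left out, leaving 2 WT and 2 5C libraries, 5 of 9 genes had an unadjusted p under 0.05 (edgeR, 4.71% of all genes), and 8 of 9 did not overlap between genotypes (33% of all genes). The libraries left out were singled out by values that include those of the 9 genes, so these counts are descriptive. *Apoa4* then had a log2 fold change of -5.52 ± 0.85 (SE), on 35 and 78 counts in WT against 3 and 1 in 5C (edgeR, adjusted p = 0.110). *Apob* had a log2 fold change of -2.24 ± 0.39 (SE) and *Apoa1* one of -1.99 ± 0.34 (SE; edgeR, adjusted p = 0.169 for both). *Apom* and *Apoe* had log2 fold changes of -1.07 and -0.31 (adjusted p = 0.919 for both). *Mttp* had a log2 fold change of 0.10, the only positive value, and the median of the 9 was -0.57. Visceral yolk sac endoderm markers, described below, were lower in this fit as well, with a median of -0.65.

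**Figure D2:**
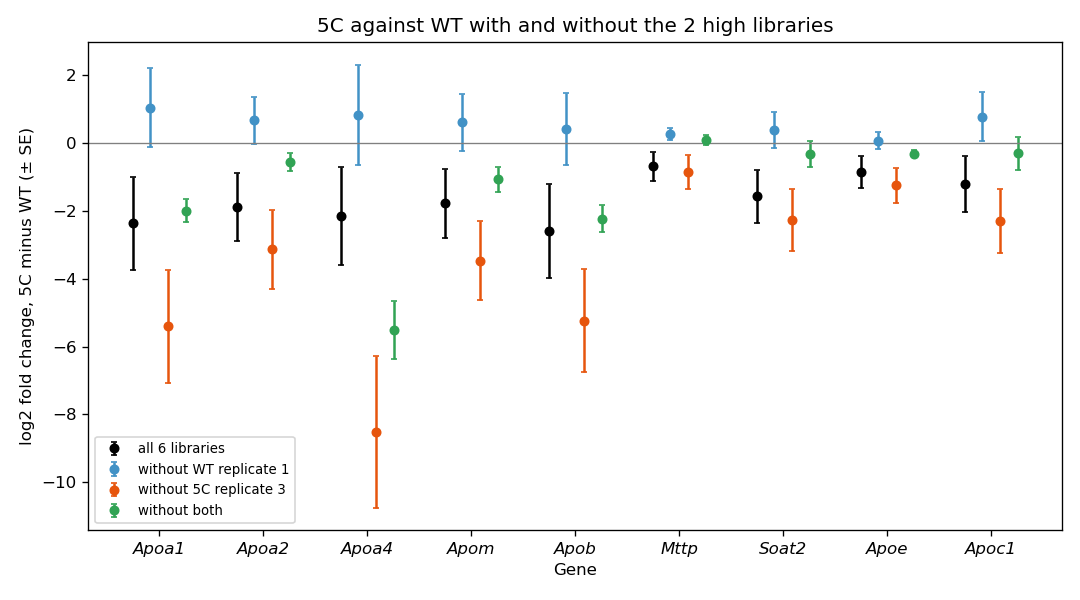
Points are log2 fold changes of 5C against WT with bars of 1 standard error, for all 6 libraries and with the 2 high libraries left out singly or together. Without WT replicate 1 all 9 values lie above 0, from 0.07 to 1.04, and without 5C replicate 3 they reach -8.51 for *Apoa4*.

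A choice of processing changed the calls. Without a filter on low counts, all 9 genes passed an adjusted p under 0.05 in edgeR, as did 1.26% of the 33139 genes then tested, with adjusted p from 3.9e-177 for *Apob* to 0.0014 for *Apoc1*. Of the 416 genes called, 19.2% had WT and 5C values that did not overlap. The number of prior degrees of freedom, which sets how far each gene's spread is drawn to the trend over genes, was 5.52 with the filter and infinite without it, so that without the filter the spread of these genes between replicates no longer entered their own test.

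Compared per length, the ranking of the genes depended on the library. In RPKM (CPM divided by the exon length in kilobases), *Apoe* had the highest median level over the 6 libraries, 27.4, followed by *Apoa2* at 10.3, *Apoa1* at 8.94, *Apom* at 6.07, *Apob* at 5.56, *Apoa4* at 4.26, *Mttp* at 2.39, *Apoc1* at 1.60 and *Soat2* at 0.615. Each neighbouring pair in this order overlapped in its range over libraries. In WT replicate 1, *Apoa1* led with 244 RPKM, ahead of *Apoa2* with 148, *Apob* with 118 and *Apoe* with 99.2 RPKM. *Apoa1* also led in 5C replicate 3, with 47.9 RPKM, and *Apoe* led in the other 4 libraries.

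As a share of the summed RPKM of the 10 genes, *Apoe* took 12.6% in WT replicate 1 and 21.6% in 5C replicate 3, but 51.0% and 34.3% in WT replicates 2 and 3 and 57.8% and 55.6% in 5C replicates 1 and 2. *Apoa1* ran the other way, from 5.10% in 5C replicate 1 to 31.04% in WT replicate 1. *Apoa2* kept a nearly level share, between 15.03% and 18.8% in all 6 libraries.

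**Figure D3:**
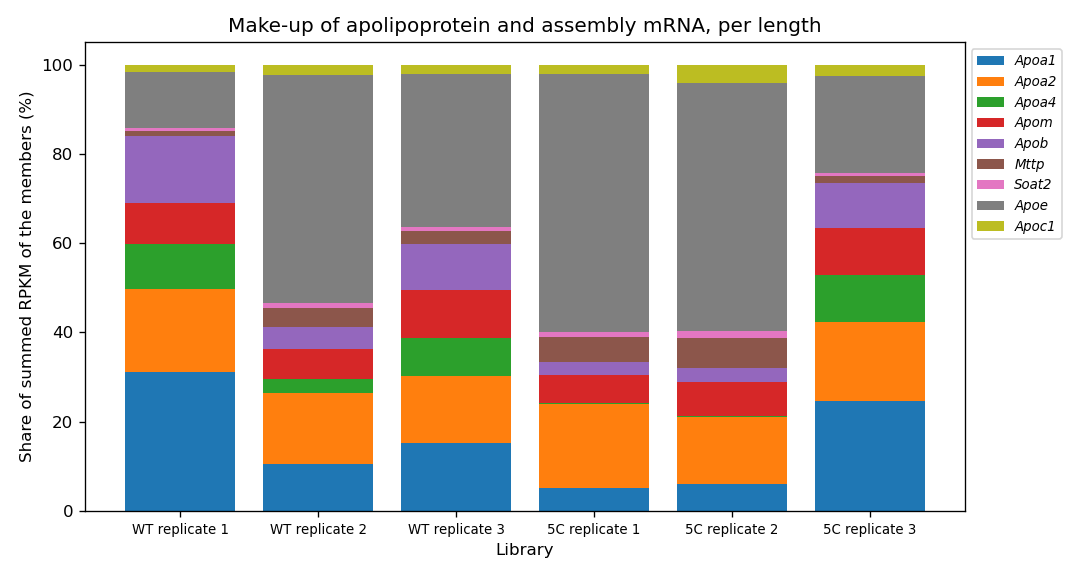
Stacked bars give the share of each gene in the summed RPKM of the set, in percent, for each library. *Apoe* makes up 51.0% to 57.8% of the bar in WT replicate 2 and 5C replicates 1 and 2, and 12.6% in WT replicate 1, where *Apoa1* has 31.04%.

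The genes most like *Apob* in their pattern over the 6 libraries were compared by the root mean square difference of centred log2 CPM, a description without a test, since the libraries are shared. *Cubn*, which encodes cubilin, an endocytic receptor of yolk sac endoderm, kidney and intestine, was nearest at 0.18, followed by *Fga* at 0.28, *Spp2* at 0.39, *S100g* at 0.40, *Kng1* and *Hsd17b2* at 0.42 and *4933402E13Rik* at 0.43. *Apoa1* differed from *Apob* by 0.23, and the median of all genes tested was 2.40. *Cubn* measured 503, 9.70 and 28.7 CPM in WT against 3.88, 3.24 and 83.6 CPM in 5C.

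The ratio of *Apob* to *Cubn* CPM was 3.27, 3.82 and 4.11 in WT and 4.30, 4.71 and 3.22 in 5C, while *Cubn* itself ran from 3.24 to 503 CPM. As *Cubn* was the gene nearest to *Apob* in pattern, a narrow range of this ratio follows from the choice. Ratios of *Apob* to other yolk sac endoderm markers ranged more widely. They were 0.175 to 0.532 for *Afp*, 0.720 to 3.33 for *Trf* and 0.224 to 6.72 for *Lrp2*. The ratio of *Apoa1* to *Cubn* ranged from 0.533 to 0.816. *Apoa4* did not keep such a ratio: it was 0.284, 0.310 and 0.433 in WT and 0.443 in 5C replicate 3, but 0.0469 and 0.0263 in 5C replicates 1 and 2, on 3 counts and 1 count. *Apoe* and *Cubn* were related differently again, with a ratio from 0.421 in WT replicate 1 to 13.2 in 5C replicate 1.

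*Apoe* had its own neighbours in pattern. *Serpinc1*, the gene of antithrombin, was nearest at 0.08, followed by *Fcgrt* at 0.10, *Qprt* at 0.12, *Pls1* and *Prss8* at 0.14, *Gsn* and *Tmem150a* at 0.15 and *Tmem106a* at 0.18. *Mttp* was the nearest of the set to *Apoe*, at 0.23, and *Apoa4* the farthest, at 2.74, while the median of all genes tested was 0.78. *Soat2* differed from *Apoe* by 0.43 and from *Apob* by 1.35.

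The excess over the lower libraries was also set against *Cubn* within each genotype. Per CPM of *Cubn* gained between the mean of WT replicates 2 and 3 and WT replicate 1, *Apob* gained 3.24 CPM. Between the mean of 5C replicates 1 and 2 and 5C replicate 3 it gained 3.16 CPM per CPM of *Cubn*. These gains were 0.601 and 0.706 for *Apoa1*, 0.152 and 0.186 for *Apoa2*, 0.0750 and 0.0678 for *Mttp* and 0.0208 and 0.0247 for *Soat2*, in WT and 5C. They were more unequal for *Apom* (0.140 and 0.225), *Apoa4* (0.280 and 0.461), *Apoe* (0.317 and 0.532) and *Apoc1* (0.0169 and 0.0360). Each gain rests on 1 high library, so it has no replicate error. Since *Cubn* was nearest to *Apob* in pattern, near-equal gains for *Apob* follow in part from that choice.

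**Figure D4:**
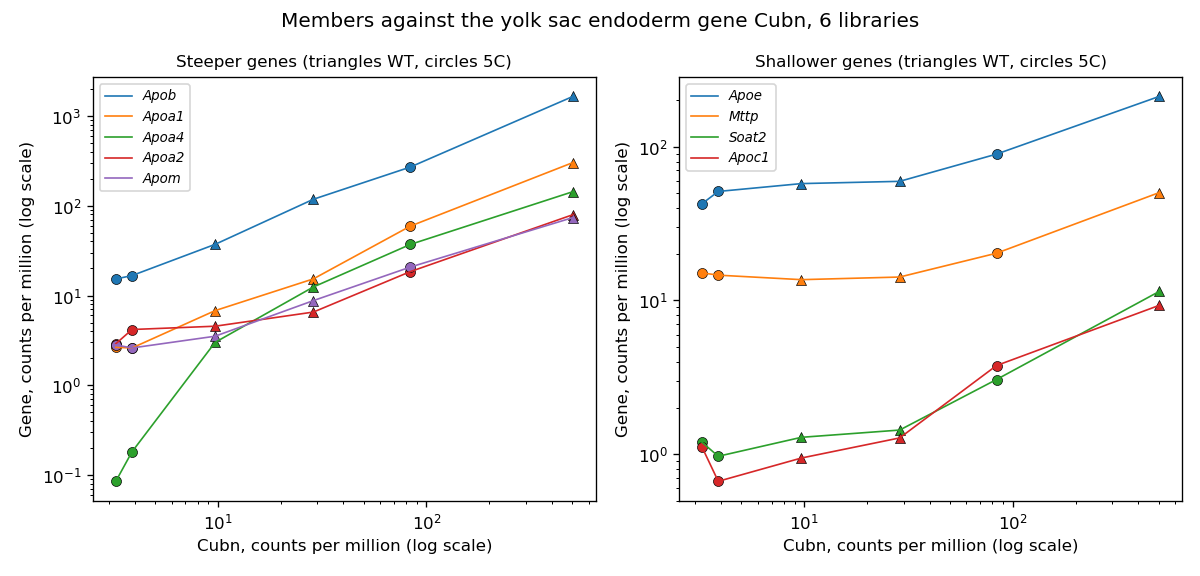
Both axes are CPM on log scales, with *Cubn* on the horizontal axis and each of the 9 genes on the vertical, over the 6 libraries (triangles WT, circles 5C). *Cubn* was the gene nearest to *Apob* in pattern. *Apob* and *Apoa1* climb along with *Cubn* over its whole range of 3.24 to 503 CPM, while *Apoe* stays between 42.6 and 59.5 CPM and *Mttp* between 13.7 and 15.1 CPM in the 4 libraries lowest in *Cubn*.

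Markers of the cell types that a whole-embryo sample could hold were compared in the same libraries. Of 18 visceral yolk sac endoderm markers, 16 were tested, and none was at 3 counts or fewer throughout. For 14 of 16 WT replicate 1 was highest and 5C replicate 3 second, and all 16 log2 fold changes were below 0, with a median of -1.97. Their summed level was 5002, 287 and 475 CPM in WT against 241, 233 and 1089 CPM in 5C, the same order of libraries as the 10 genes. *Afp*, the fetal plasma carrier alpha-fetoprotein, measured 3091, 107 and 227 CPM in WT against 84.8, 87.3 and 632 CPM in 5C. *Trf*, the gene of transferrin, measured 494, 24.7 and 45.6 CPM in WT against 23.1, 20.6 and 90.4 CPM in 5C. *Lrp2*, which encodes megalin, the partner of cubilin, measured 245, 80.1 and 94.1 CPM in WT against 74.3, 56.1 and 93.5 CPM in 5C. *Afp*, *Trf* and *Lrp2* were the most abundant of the list, and *Lrp2* was 1 of the 2 without the order of the 10 genes, since WT replicate 3 lay just above 5C replicate 3. Without both high libraries, 9 of the 11 markers still tested were lower in 5C at an unadjusted p under 0.05 (edgeR, 4.71% of all genes). Their median log2 fold change was then -0.65, and that of *Cubn* was -2.35 (edgeR, adjusted p = 0.169). In the list, *Afp*, *Trf*, *Ttr* and *Rbp4* are made by fetal liver too. The part of this cell type in the values of the 10 genes was not tested.

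Hepatoblast markers, from another source of these proteins, varied less between libraries in sum, to which *Tbx3*, *Onecut2* and *Met* gave the most in mean CPM. Of 14 listed, 11 were tested, 2 of them had the order of the apolipoprotein genes, and their summed level was 241, 122 and 168 CPM in WT against 136, 139 and 158 CPM in 5C, so that WT replicate 1 and 5C replicate 3 were the highest of their genotypes. The median of their log2 fold changes was -0.22. *Alb*, the gene of albumin and the defining product of hepatocytes, chosen with its values known, measured 10.49, 3.35 and 7.98 CPM in WT against 5.45, 5.55 and 5.13 CPM in 5C. The most abundant markers were *Tbx3* (35.5 to 44.8 CPM in WT, 36.4 to 37.6 CPM in 5C), *Onecut2* (24.3 to 37.0 and 28.3 to 33.6 CPM) and *Met* (26.3 to 29.7 and 24.9 to 32.5 CPM). The 2 tested markers with the order of the apolipoprotein genes, singled out like *Alb* after their values were seen, encode plasma proteins. *Fgb*, a fibrinogen chain, measured 67.1, 4.89 and 7.34 CPM in WT against 5.03, 4.44 and 22.1 CPM in 5C. *Serpina1b*, an alpha-1 antitrypsin gene, measured 17.7, 1.29 and 1.75 CPM in WT against 1.51, 2.31 and 4.77 CPM in 5C. The markers too low to test, *Ahsg*, *Serpina1a* and *Itih1*, were also highest in WT replicate 1, at 0.577, 2.62 and 1.73 CPM. The part of hepatoblasts in the values of the 10 genes was not tested either.

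Of 12 gut endoderm markers, 11 were tested and 6 had the order of the apolipoprotein genes, with summed levels of 351, 188 and 189 CPM in WT against 168, 162 and 234 CPM in 5C. *Krt18*, a keratin of simple epithelia, was the most abundant (55.5 to 114 CPM in WT, 44.4 to 85.9 CPM in 5C), ahead of *Epcam* (35.4 to 49.9 and 33.7 to 41.8 CPM) and *Krt8* (28.2 to 52.9 and 22.5 to 36.4 CPM). None of the macrophage, primitive erythroid and neural progenitor markers tested (12, 10 and 10) had that order.

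Macrophage markers, of interest because macrophages make apolipoprotein E, summed to 56.4 to 73.2 CPM in WT and 62.0 to 76.0 CPM in 5C, with *Mrc1*, *Csf1r* and *Ptprc* the most abundant (at most 22.7 CPM). Erythroid markers summed to 9282 to 12766 CPM in WT and 8474 to 16579 CPM in 5C, led by *Hbb-y*, *Hbb-bh1* and *Hba-x*. Neural markers summed to 1712 to 1926 CPM in WT and 1866 to 1964 CPM in 5C, led by *Vim*, *Nes* and *Ptn*. Of 13 trophoblast and decidual markers, 6 had at most 3 counts in every library, and the list summed to 12.8 to 46.9 CPM in WT and 12.0 to 39.6 CPM in 5C, mostly *Prl8a2*, with *Prl3b1* and *Dio3* next. In the 4 of them tested the order of the apolipoprotein genes occurred once, in *Dio3*. The part of these cell types in the values of the 10 genes was not tested.

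**Figure D5:**
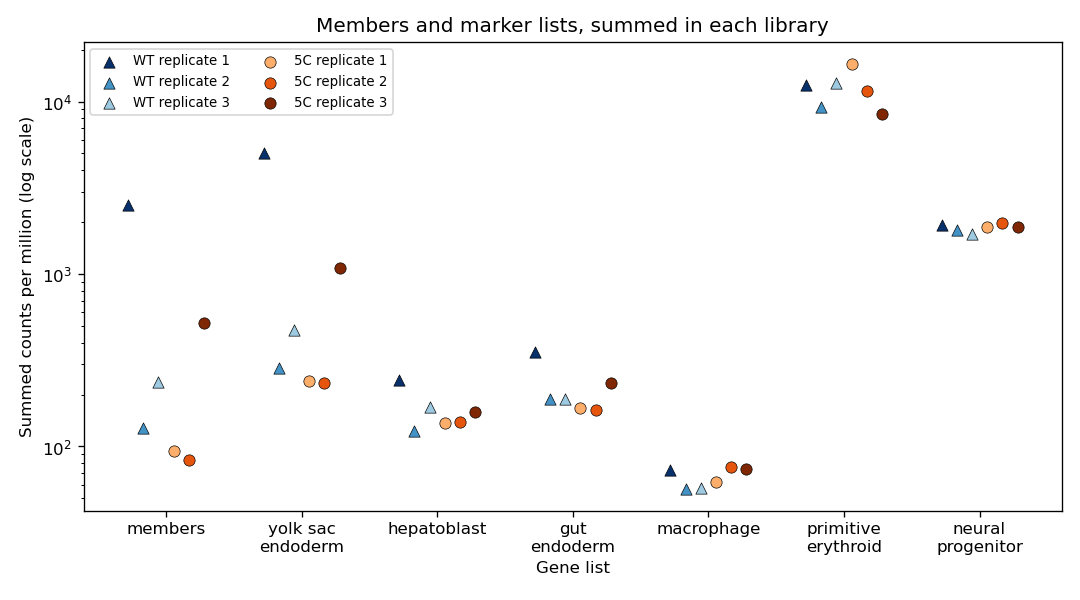
Points are summed CPM of each list in each library, on a log axis. The 10 apolipoprotein and assembly genes (members) run from 83.8 to 2527 CPM and the yolk sac endoderm markers from 233 to 5002 CPM. Both have WT replicate 1 and 5C replicate 3 on top. Hepatoblast markers, led in mean CPM by *Tbx3*, *Onecut2* and *Met*, run from 122 to 241 CPM.

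Other genes of the lipoprotein pathway were counted over lists chosen by function. Of 13 other apolipoproteins and apolipoprotein-like genes, 5 were tested, 4 of them with log2 fold changes above 0. *Apoo* and *Apool*, which encode mitochondrial proteins, had the smallest p values, with log2 fold changes of 0.49 and 0.09 (edgeR, unadjusted p = 0.0703 and 0.302). *Clu*, clusterin, was the 1 gene of the 5 with WT replicate 1 first and 5C replicate 3 second. *Apoc3*, singled out after its values were seen because it belongs to the *Apoa1* and *Apoa4* gene cluster, had 32 counts in WT replicate 1, 4 counts in 5C replicate 3 and none elsewhere, and was too low to test. Of the others too low to test, *Apoa5*, *Apof* and *Apoh* also had that order, on at most 16 counts in a library. *Apoc4*, *Apon*, *Apol6* and *Apol8* did not.

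Among 29 genes that help to build and export the particles, 26 were tested, 17 with a lower and 9 with a higher level in 5C (median log2 fold change -0.08), and 2 had an unadjusted p under 0.05, where 6.02% of all genes did. *Sec24d*, a cargo adaptor of COPII vesicles, had a log2 fold change of -0.26 ± 0.11 (SE; edgeR, unadjusted p = 0.0471), and *Mogat2*, which makes diacylglycerol for triglyceride synthesis, one of -0.41 ± 0.16 (SE) (unadjusted p = 0.0286). The count of 2 of 26 is near that background. The order of the apolipoprotein genes was seen in 4 of the 26.

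Of 18 genes of remodelling and transfer in plasma, 12 were tested, 10 of them lower, with a median log2 fold change of -0.19. *Abca1*, the transporter that passes cholesterol to apolipoprotein A1, had the 1 unadjusted p under 0.05 (6.02% of all genes), with 67.3, 45.9 and 54.1 CPM in WT against 45.8, 47.4 and 42.2 CPM in 5C and a log2 fold change of -0.31 ± 0.13 (SE; edgeR, unadjusted p = 0.0370, adjusted p = 0.781). No gene of these 3 lists passed an adjusted p under 0.05.

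Of 24 transcription regulators of lipoprotein genes, 19 were tested, 16 of them lower in 5C (median log2 fold change -0.21), and 3 had an unadjusted p under 0.05 (6.02% of all genes). *Hnf4a*, a nuclear receptor that activates many apolipoprotein genes, measured 35.3, 2.32 and 4.47 CPM in WT against 2.06, 1.96 and 7.05 CPM in 5C, with a log2 fold change of -2.00 ± 0.88 (SE; edgeR, unadjusted p = 0.0479). *Creb3l3*, a membrane-bound factor that induces *Apoa4* and *Apoc2*, measured 13.1, 0.515 and 1.28 CPM in WT against 0.303, 0.427 and 1.92 CPM in 5C, with a log2 fold change of -2.63 ± 1.04 (SE; edgeR, unadjusted p = 0.0315).

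*Mlxipl*, a glucose-responsive activator of lipid synthesis, had a log2 fold change of -0.74 ± 0.27 (SE; edgeR, unadjusted p = 0.0234) but did not have WT replicate 1 on top. None of the 3 passed the adjustment (adjusted p = 0.781 each). *Hnf4a* and *Creb3l3*, along with *Foxa2*, *Foxa3* and *Nr1h3*, were the 5 tested regulators with WT replicate 1 first and 5C replicate 3 second. Without both high libraries, 0 of the 17 regulators still tested had an unadjusted p under 0.05, and the log2 fold change of *Hnf4a* was -0.65 (unadjusted p = 0.0826).

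The genes next to the 10 on their chromosomes did not share the pattern as a rule. The nearest tested protein-coding gene wholly beyond each end, outside the 10, gave 14 distinct neighbours. In them WT replicate 1 stood at 0.947 to 4.13 times the mean of the other WT libraries. *Trmt10a*, whose exons overlap those of *Mttp*, was not counted as a neighbour. *Adh1*, 116023 bases from *Mttp* and itself a gene of liver and intestine, was the only neighbour with the order of the apolipoprotein genes and had the ratio of 4.13. *Bag6*, 3128 bases from *Apom*, and *Tomm40*, 2125 bases from *Apoe*, had ratios of 1.15 and 0.995.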

How the data were processed

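Whole-embryo RNA was taken through stranded poly(A) mRNA libraries (TruSeq), which the authors sequenced as single-end reads, aligned with STAR 2.5.0a to GRCm38 and counted per Ensembl gene (release 100). The deposited values are raw whole-number counts per gene and library, without normalization, and the strand setting of the counting was not given in the sources used here. Titles of the samples gave genotype and replicate. They do not tie equal numbers to a litter. The pools are separate samples, so p-values measure the spread between pools of 2 embryos.

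Counts were fitted with edgeR 4.0.16 in R 4.3.3: filterByExpr on genotype, TMM scaling, the legacy quasi-likelihood F-test (the test of the study's methods), two-sided p-values and Benjamini-Hochberg adjustment over all genes tested. Standard errors (SE) are log2 fold changes over the root of F. CPM used TMM-scaled totals, and RPKM divided CPM by merged exon length. Every 2 libraries differed beyond sampling noise (chi-square per gene at least 5.76).

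The members and lists were chosen with earlier results of these data known. All members were named in every library. From each pathway list the genes at an unadjusted p under 0.05 were named, or else the 2 with the smallest p. From each marker list the 3 genes of highest mean CPM were named, here with levels or ranges where they bear on the members, and for *Apob* and *Apoe* the 8 genes of most similar pattern, of which one is not reported here. Alternatives were relative log expression scaling, library size alone, no count filter, at least 10 counts in every sample, DESeq2 1.42.0, voom in limma 3.58.1, robust moderation, edgeR's newer form of the test, a block on replicate number, and libraries left out. The length of exon not shared with other genes, and the count of genes in the library order described, were added after seeing the data. Of the 55401 gene identifiers, 55141 were found in the GENCODE annotation. Protein sequences were not used here.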

Additional observations from a re-analysis of the deposited data

How the results depend on the processing

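No gene of the set passed the adjusted threshold in any alternative run except the absence of a count filter, where 9 did, all 9 also at an unadjusted p under 0.05 (416 genes called in all, against 0 with the filter). Other scalings, tests and the stricter filter kept all fitted log2 fold changes below 0. Leaving out single libraries gave medians from -3.14 to 0.60, 0 to 8 genes at an unadjusted p under 0.05, 0 adjusted calls, and 0 to 7 genes whose genotypes did not overlap. Without WT replicate 2 or WT replicate 3, 7 and 3 genes had an unadjusted p under 0.05, where 10.4% and 5.11% of all genes did. Single genes ranged, over these left-out libraries, from -5.40 to 1.04 for *Apoa1*, -3.14 to 0.66 for *Apoa2*, -8.51 to 0.83 for *Apoa4*, -5.23 to 0.41 for *Apob*, -2.29 to 0.77 for *Apoc1*, -1.25 to 0.066 for *Apoe*, -3.47 to 0.60 for *Apom*, -1.02 to 0.26 for *Mttp* and -2.26 to 0.37 for *Soat2*, with every positive value from the fit without WT replicate 1. Without both high libraries *Mttp* was at 0.10, 5 genes had an unadjusted p under 0.05 and 8 did not overlap. Over the alternatives with a filter the lowest adjusted p was 0.110 for *Apoa4* and 0.169 for *Apob* and *Apoa1*. Over all genes, DESeq2 called 21, robust moderation 3, and edgeR 0.

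Deviations of same-numbered libraries correlated at -0.17 to 0.20, and those of WT replicate 1 and 5C replicate 3 at 0.31. With 3 libraries a genotype this cannot show whether equal replicate numbers pair the samples. A block on replicate number gave a median log2 fold change of -1.32, and 0 genes of the set had an unadjusted p under 0.05 (782 of all genes, against 1011 without it).

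Depth limits *Apoc2* (1 count in all) and *Apoa4* in 5C replicates 1 and 2, which lie at or below 3 counts. With 3 libraries a genotype and 1 far from the rest in each, the size of a genotype difference in these genes cannot be given closely.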
